A study of Mus musculus with 6 samples.

Results

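Transcript levels of 9 genes whose products oppose the myogenic basic helix-loop-helix (bHLH) factors were examined in the C2C12 line, mouse myoblasts that form myotubes after serum withdrawal. The genes were the ID proteins *Id1*, *Id2*, *Id3* and *Id4*, the Twist family factors *Twist1*, *Twist2* and *Msc* (musculin, also called MyoR), and the paired repressors *Bhlhe40* and *Bhlhe41*. They were taken by symbol from the 55401 genes of the count matrix, and 8 of the 9 were among the 17310 genes that passed the filter on low counts and were tested.

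RNA was sequenced from 3 wells of control cells, labelled wild type, and 3 wells of *Phf2* KO cells, all 2 d post differentiation in medium with 2% horse serum. *Phf2* encodes a histone demethylase of the KDM7 family that removes a repressive methyl mark from histone H3. The KO cells had received a pool of Cas9 plasmids that carried guides against *Phf2* and a ZsGreen reporter, and the controls, which the study's methods describe as mock cells, the same kind of plasmid with a guide that matches no mouse sequence, so both groups had been transfected, exposed to Cas9, sorted for ZsGreen and cryopreserved. The paper names as a limit that the control guide would make no double-strand breaks in DNA. No single clones were grown: each group came from 1 sorted pool and the KO pool is a mixture of edits. A difference between the pools, an effect of DNA breaks and an effect of *Phf2* therefore cannot be told apart. The p-values measure only the spread between wells. The total of estimated counts was 52526109 to 67502788 per library. *Phf2* transcripts (chromosome 13, 48801750 to 48871119) were 102.4, 95.5 and 104.6 CPM (estimated counts scaled to the TMM-adjusted library size) in the control libraries against 41.1, 37.6 and 38.6 in the *Phf2* KO libraries, a log2 fold change of -1.37 (SE 0.055, adjusted p = 8.32e-09, quasi-likelihood test of edgeR), and this transcript level does not measure the protein.

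Myogenic bHLH factors such as MyoD and myogenin bind DNA as heterodimers with E proteins, the products of *Tcf3*, *Tcf4* and *Tcf12*, at short motifs called E boxes. ID proteins keep the helix-loop-helix that pairs with E proteins but lack the basic region that touches DNA, so that a dimer with an ID protein does not bind. Twist factors and musculin occupy E boxes or E proteins themselves, and BHLHE40 and BHLHE41 are E box repressors best known from the circadian clock and the response to low oxygen. Bone morphogenetic protein (BMP) signaling, through the receptor-regulated SMAD proteins and SMAD4, is a classical inducer of *Id1*, *Id2* and *Id3*.

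Stretches around RefSeq start sites were searched for motifs through which bHLH factors and SMADs are known to act. Some that hold a match are printed here. RefSeq promoter windows (GRCm38.p6, 250 bases before to 50 after the start site) were matched by symbol for 6 of the 9 genes, *Id2*, *Id3*, *Id4*, *Twist1*, *Twist2* and *Bhlhe41*, and not for *Id1*, *Msc* and *Bhlhe40*. For *Id2*, chr12:25096254-25096342 on the minus strand is shown, positions -250 to -162 from the RefSeq start site and inside the span of a longer annotated *Id2* transcript. For *Bhlhe41*, chr6:145865559-145865670 on the minus strand is shown, positions -250 to -139 from the start. Capitals mark E boxes (CANNTG), which include the CACGTG form, and GC-rich SMAD-type elements (GGCGCC).
Id2: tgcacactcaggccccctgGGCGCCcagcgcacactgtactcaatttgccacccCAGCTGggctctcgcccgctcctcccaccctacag
Bhlhe41: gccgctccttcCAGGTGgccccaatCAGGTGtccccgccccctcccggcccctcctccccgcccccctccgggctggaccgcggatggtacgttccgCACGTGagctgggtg

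Among the 6 windows, an E box was found in *Id2* (1 match, at -196) and *Bhlhe41* (4 matches, at -239, -225, -153 and +9), 2 of 6 against 72.3% of all 32851 promoter windows on either strand. CACGTG, the form that BHLHE40 and BHLHE41 are known to bind, was found only in *Bhlhe41* of the 6 windows, and in 7.15% of all windows. GGCGCC was found in *Id2* (at -231) and *Id4* (at -148) and in 11.9% of all windows, the related GCCGCC in 4 of the 6 (*Id4*, *Twist1*, *Twist2* and *Bhlhe41*) and in 23.4% of all. The SMAD-binding letters GTCTG, searched on both strands, were found in *Id3*, *Twist1* and *Bhlhe41* and in 49.6% of all windows. A CCAAT box was found in 5 of the 6, all but *Id3* (37.4% of all), TATAAA in *Twist1* alone of the 6 (13.6%), and CACGAG in none (6.47%). The windows had a GC content of 60.0% to 73.3%, against a median of 52.7% over all windows. These are matches of letters in a window and no binding was measured.

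The 2 places where the GTCTG letters stand in *Id3*, with the letters in capitals as they read on the plus strand, were chr4:136143643-136143671 and chr4:136143742-136143770. Both lie before the RefSeq start site but inside the annotated span of *Id3*, which begins at 136143497.
Id3, at -167: tgtcctcggcgtCAGACcagcctaaggaa
Id3, at -68: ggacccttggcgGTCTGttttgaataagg

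Among the ID genes, *Id2* rose in *Phf2* KO cells by the main test, while *Id1* and *Id3* had higher values in every KO library than in every control library and did not pass the adjusted threshold. *Id4* had no count. Of the 8 genes tested, 1 was called higher (3.22% of all genes tested were) and 0 lower (3.26% of all). At an unadjusted p under 0.05 the 8 held 3 genes, *Id1*, *Id2* and *Id3*, all of them higher, beside 19.4% of all genes tested (9.97% higher and 9.47% lower). Called higher were 2 of 8 with exactTest of edgeR (*Id2* and *Id3*; 3.1% of all genes tested), 2 with DESeq2 (the same pair; 4.26% of all) and 1 with limma-voom (*Id3*; 2.56% of all), and 0 were called lower with these tools (3.42%, 4.46% and 2.73% of all); in both directions they called 6.52%, 8.72% and 5.29% of all genes. For 3 of the 8 the KO libraries all lay above the controls and for 1, *Msc*, all below, beside 12.9% and 12.2% of all genes tested (25.1% in either direction). The median log2 fold change of the 8 was 0.10, beside -0.000958 over all genes tested. A differentiating culture holds myotubes and unfused cells, so in any difference given here fewer cells of a type and less RNA per cell cannot be told apart.

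*Id3* (ENSMUSG00000007872, chromosome 4, 136143497 to 136145755, plus strand, 3 transcripts) was the most abundant of the 9 genes. Its level was 98.3, 82.2 and 109.8 CPM in control replicates 1 to 3 and 147.8, 135.6 and 127.0 CPM in KO replicates 1 to 3. The groups did not overlap, and the lowest KO library was above the highest control library. The mean was 96.8 ± 13.8 CPM in control and 136.8 ± 10.4 CPM in KO cells (SD, n = 3 each), 1.41-fold higher, with a log2 fold change of 0.50 (SE 0.115, 95% interval 0.22 to 0.78). The quasi-likelihood test of edgeR gave an adjusted p of 0.0661, above the threshold of 0.05. Other tests on the same counts placed *Id3* past it: the adjusted p was 5.52e-05 with exactTest of edgeR, 3.31e-07 with DESeq2 and 0.0118 with limma-voom. It also passed the quasi-likelihood test without control replicate 2 (0.0163) and without control replicate 3 (0.00215). The call for *Id3* thus depended on the test, while its direction was the same in every fit.

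*Id1* (ENSMUSG00000042745, chromosome 2, 152736251 to 152737410, plus strand, 2 transcripts) is the ID gene named most often as a direct BMP target. Its level was 20.4, 15.8 and 18.9 CPM in the control libraries and 22.3, 22.7 and 22.6 CPM in the KO libraries. The KO libraries lay close together, and the nearest control library was below them by less than the spread among the controls. The means were 18.4 ± 2.32 and 22.5 ± 0.224 CPM (SD, n = 3 each) with a log2 fold change of 0.29 (SE 0.094, 95% interval 0.09 to 0.50), and the adjusted p was 0.0883 in edgeR (0.00787 unadjusted). No alternative fit brought *Id1* under an adjusted p of 0.05, with values from 0.0508 to 0.315.

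*Id2* (ENSMUSG00000020644, chromosome 12, 25093799 to 25097140, minus strand, 3 transcripts), an ID gene also known for its part in lymphoid and mammary development, had 14.7, 17.8 and 16.6 CPM in the control libraries. In the KO libraries it had 20.2, 19.9 and 22.0 CPM, all above the highest control. The means were 16.4 ± 1.54 and 20.7 ± 1.13 CPM (SD, n = 3 each), a 1.27-fold rise (95% interval 1.10 to 1.45) or a log2 fold change of 0.34 (SE 0.092, adjusted p = 0.0419 in edgeR). The adjusted p was close to the threshold: leaving out any single one of the 6 libraries moved it to between 0.0601 and 0.167, and it was 0.0561 with limma-voom, 0.0547 with exactTest on unfiltered genes and 0.142 with limma on log2(TPM + 1). It stayed under 0.05 with DESeq2 and with exactTest on the filtered genes. With 3 libraries against 3, a two-sided exact permutation test of each of *Id1*, *Id2* and *Id3* alone gave p = 0.1, the smallest that this design allows.

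*Id4* (ENSMUSG00000021379, chromosome 13, 48261228 to 48266026, plus strand), an ID gene best known from neural and glial precursors, had a count of 0 in all 6 libraries. A read pair (reads of 150 bases in pairs) gives about 4 of these estimated counts, since a count stands for about 75 covered bases. With 0 read pairs up to 3 are still allowed, or 12 counts, which is 0.177 to 0.228 CPM in these libraries, a limit that covers counting error only. *Id4* lies on the same chromosome as *Phf2*, 535.7 kb from its nearer end. *A330033J07Rik* and *Gm49291*, which overlap it on the opposite strand, were also listed at 0.

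**Figure D1:**
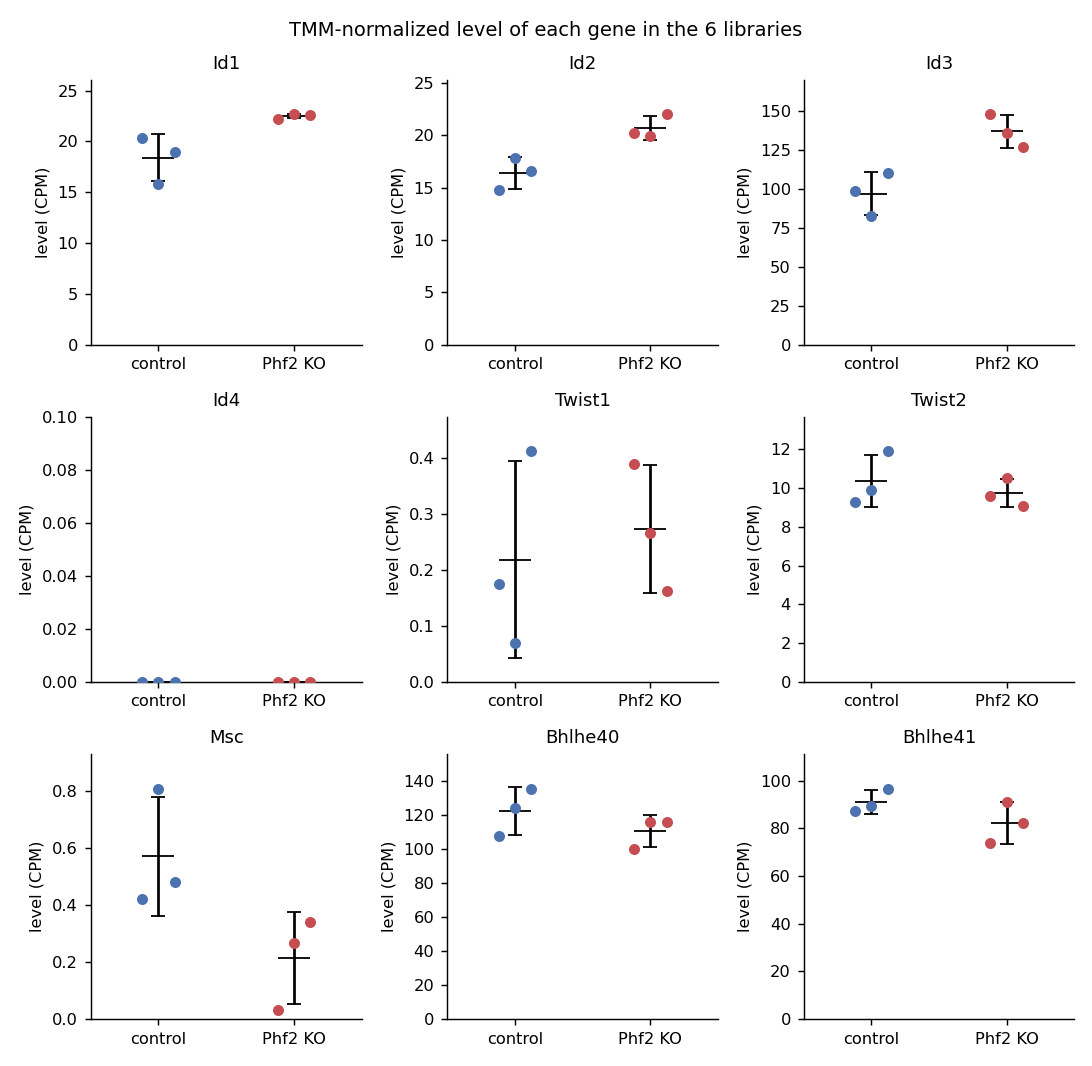
Level of each of the 9 genes in CPM (TMM-normalized, linear axes from 0, a scale of its own for each gene) in 3 control and 3 *Phf2* KO libraries; points are libraries and bars the mean ± SD. *Id1*, *Id2* and *Id3* had all KO points above all control points, *Id4* was at 0, and *Twist2*, *Bhlhe40* and *Bhlhe41* overlapped between the groups.

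The Twist family factors gave no call in either direction. *Twist2* (ENSMUSG00000007805, chromosome 1, 91801461 to 91848028, plus strand), also called Dermo-1, is known to inhibit MyoD in mesenchymal cells. It had 9.31, 9.92 and 11.9 CPM in control and 9.61, 10.5 and 9.09 CPM in KO libraries. The groups overlapped, with means of 10.4 ± 1.35 and 9.74 ± 0.720 CPM (SD, n = 3 each). The log2 fold change was -0.09 (95% interval -0.36 to 0.17, adjusted p = 0.766 in edgeR), and this interval holds both falls and rises. *Gm29100*, annotated antisense over its start, was listed at 1.47 to 2.13 TPM (a level scaled by transcript length and library) and had an adjusted p of 0.509, and the sources do not say whether strand was used in counting.

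*Twist1* (ENSMUSG00000035799, chromosome 12, 33957671 to 33959829, plus strand) is the founding mammalian Twist gene and an inhibitor of myogenesis when present in excess. Only 10, 4 and 24 estimated counts fell on it in the control libraries and 24, 14 and 11 in the KO libraries, and the groups overlapped. Its log2 fold change was 0.31 with a 95% interval of -1.28 to 1.91 (adjusted p = 0.881 in edgeR), and it was below 0 without control replicate 2 (-0.11) or KO replicate 1 (-0.04), so that no direction could be read at this depth.

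*Msc* (ENSMUSG00000025930, chromosome 1, 14753346 to 14755992, minus strand) encodes musculin, a repressor of undifferentiated myoblasts. It had 24, 47 and 28 estimated counts in the control and 2, 14 and 23 in the KO libraries, which is 0.421, 0.807 and 0.481 CPM against 0.0325, 0.267 and 0.340 CPM. Each KO library was below each control library in CPM, but in TPM the groups overlapped, with 0.538, 1.20 and 0.660 in control and 0.141, 0.903 and 1.22 in KO libraries. The log2 fold change was -1.41 (SE 0.68, 95% interval -2.87 to 0.05) with an adjusted p of 0.278 in edgeR. Because a read pair gives about 4 of these counts, the values of *Twist1* and *Msc* rest on very few read pairs.

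*Bhlhe40* and *Bhlhe41*, both on chromosome 6, gave nearly the same log2 fold change, -0.15 each, and neither was past the threshold. *Bhlhe40* (ENSMUSG00000030103, 108660629 to 108666925, plus strand), also known as Dec1 or Stra13, had 107.4, 124.1 and 135.5 CPM in control and 99.8, 115.8 and 115.9 CPM in KO libraries. The groups overlapped, with means of 122.3 ± 14.1 and 110.5 ± 9.29 CPM (SD, n = 3 each) and an adjusted p of 0.479 in edgeR (95% interval of the log2 fold change -0.37 to 0.07). Between libraries of the same replicate number, the KO value was the lower one in 3 of 3, and with the replicate block the adjusted p was 0.0729, still above the threshold. *Bhlhe41* (ENSMUSG00000030256, 145858243 to 145865558, minus strand), also known as Dec2 or Sharp1, had 87.3, 89.6 and 96.7 CPM in control and 73.7, 91.3 and 82.2 CPM in KO libraries. KO replicate 2 lay among the controls and the other KO libraries below them. The means were 91.2 ± 4.94 and 82.4 ± 8.79 CPM (SD, n = 3 each) and the adjusted p was 0.293 in edgeR (95% interval -0.30 to 0.01). *Gm43909*, antisense to *Bhlhe41*, was listed at 1.30 to 2.81 TPM.

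Levels of different genes can be set side by side only per length, for which the TPM of each library was used. *Id3* had the highest mean over the 6 libraries, 202.5 TPM, followed by *Bhlhe40* with 82.5, *Id1* with 46.7, *Id2* with 31.8, *Bhlhe41* with 31.2, *Twist2* with 16.5, *Msc* with 0.777 and *Twist1* with 0.314 TPM. The ranges over the 6 libraries overlapped for *Id1* and *Id2* (36.0 to 53.0 and 24.9 to 38.8 TPM), although *Id1* was above *Id2* in each of the 6 libraries. *Id2* and *Bhlhe41* could not be ordered, since each was above the other in 3 libraries. *Msc* and *Twist1* also overlapped, with *Msc* above in 5 of 6 libraries. The ranges of all other neighbours in this order were separate. *Bhlhe40* transcripts were between 2.33 and 2.79 times those of *Bhlhe41* in each library.

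**Figure D2:**
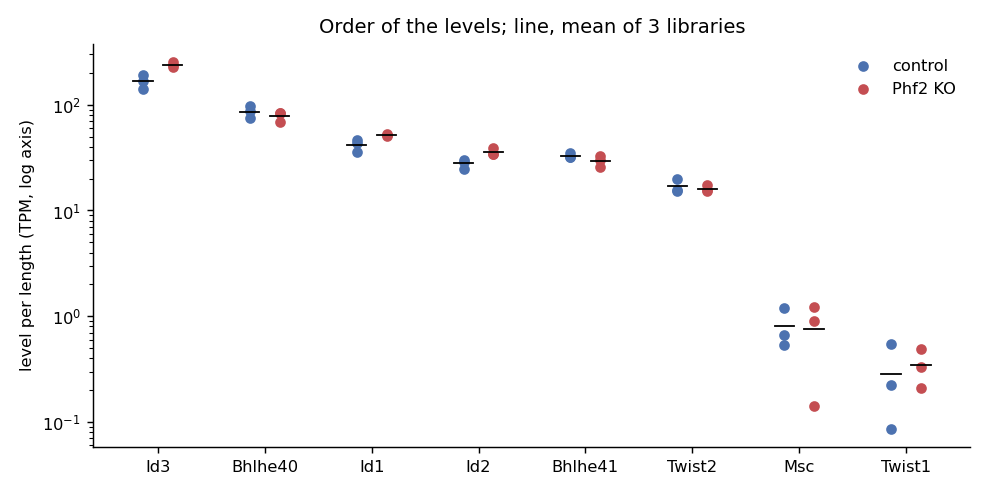
Level per length (TPM, log axis) of the 8 genes with a count, in order of their mean over the 6 libraries, for control and *Phf2* KO libraries; points are libraries and lines the mean of 3. *Id3*, with a mean of 202.5 TPM, was above the other genes in every library, and *Msc* and *Twist1* were under 2 TPM throughout.

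The summed TPM of the ID genes was 240.0, 207.5 and 263.5 in control and 336.4, 321.1 and 317.6 in KO libraries. All KO sums were above all control sums, with means of 237.0 ± 28.1 and 325.0 ± 9.97 TPM (SD, n = 3 each). *Id3* made up 68.1% to 74.9% of this sum, *Id1* 14.9% to 19.3% and *Id2* 10.2% to 14.5%, and these shares overlapped between the groups. The sum, the shares and the ratios that follow are descriptions with no test.

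The 4 myogenic factors and the 3 E proteins that they share with ID proteins gave 1 call among 7 genes, *Myog*, which fell, beside 3.26% of all genes tested called lower and 6.48% called in either direction. *Myog* (chromosome 1), the myogenin gene that drives terminal differentiation, had 470.7 ± 38.3 CPM in control and 372.9 ± 30.8 CPM in KO cells (SD, n = 3 each), with a log2 fold change of -0.34 (SE 0.071, adjusted p = 0.0221 in edgeR). The call for *Myog* was lost without control replicate 1 (adjusted p = 0.0796), control replicate 2 (0.0909), KO replicate 2 (0.0768) or KO replicate 3 (0.129). *Myod1*, which commits cells to the muscle lineage, had 86.8 ± 5.88 and 76.8 ± 1.54 CPM (SD, n = 3 each). Its KO libraries were all below the controls, and the log2 fold change of -0.18 had an adjusted p of 0.0679 in edgeR. *Myf5*, the early myogenic factor, had 35.2 ± 2.67 and 38.8 ± 1.53 CPM (SD, n = 3 each, adjusted p = 0.282 in edgeR), and *Myf6*, a factor of mature fibres, had means of 0.340 and 0.135 CPM (adjusted p = 0.462 in edgeR).

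Among the E protein genes, *Tcf3* (E2A) had 122.7 ± 4.14 CPM in control and 136.3 ± 7.83 CPM in KO cells (SD, n = 3 each), with all KO libraries above the controls and an adjusted p of 0.0989 in edgeR. *Tcf12* (HEB) had 176.9 ± 6.42 and 187.8 ± 5.21 CPM (SD, n = 3 each, adjusted p = 0.326 in edgeR). *Tcf4* (E2-2) had 221.8 ± 13.8 and 224.1 ± 7.34 CPM (SD, n = 3 each) with a log2 fold change of 0.02 (adjusted p = 0.921 in edgeR), which turned to -0.42 on the log2(TPM + 1) scale (adjusted p = 0.136 with limma). The median log2 fold change of these 7 genes was 0.015. Called higher was 0 of 7 by the quasi-likelihood test of edgeR, exactTest, DESeq2 or limma-voom, while DESeq2 also called *Myod1* lower. At an unadjusted p under 0.05 there were 1 higher (*Tcf3*) and 2 lower (*Myod1* and *Myog*), beside 9.97% and 9.47% of all genes tested.

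The summed TPM of the ID genes over that of the 3 E protein genes was 1.14, 0.934 and 1.12 in control and 1.57, 1.35 and 1.42 in KO libraries. Every KO ratio was above every control ratio, with means of 1.06 ± 0.113 and 1.45 ± 0.112 (SD, n = 3 each). The E protein sum overlapped between the groups, with means of 222.7 ± 13.0 and 225.1 ± 11.6 TPM (SD, n = 3 each). This ratio therefore largely restates the ID sum, and ratios of transcripts do not measure ratios of proteins. Without *Tcf4*, whose direction depended on the unit, the ratios were 1.53, 1.26 and 1.54 against 1.94, 1.71 and 1.72, again without overlap. Over the sum of the myogenic factor genes, the ratio was 0.279, 0.250 and 0.347 in control and 0.473, 0.499 and 0.478 in KO libraries. The denominator of the last ratio was itself lower in every KO library, since the myogenic sum was 859.0, 831.2 and 760.5 TPM in control and 711.2, 644.1 and 663.9 TPM in KO libraries.

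**Figure D3:**
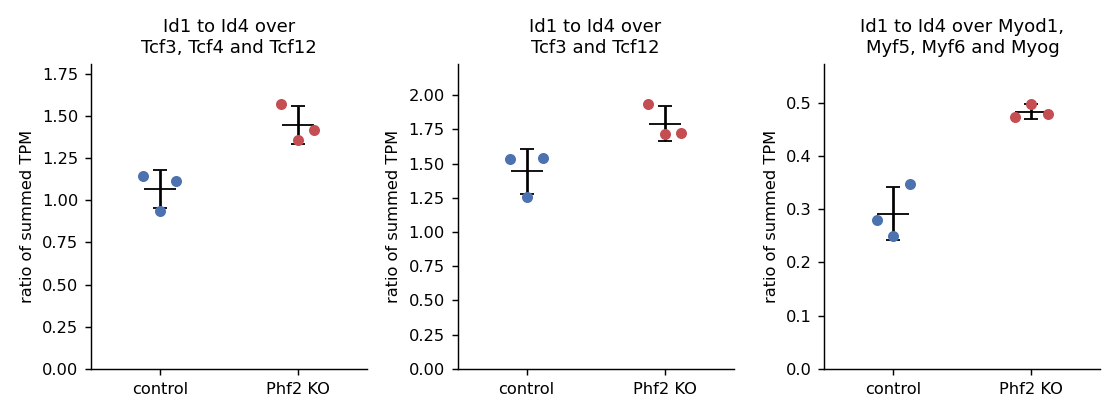
Ratio of the summed TPM of *Id1* to *Id4* to that of the E protein genes, of the E protein genes without *Tcf4*, and of the myogenic factor genes (linear axes from 0); points are libraries and bars the mean ± SD of 3. The KO libraries were above the controls in each panel, with means of 1.45 against 1.06 in the left one.

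The BMP pathway, the classical inducer of the ID genes, was described by 30 genes, of which 28 were tested (*Bmp7* and *Gdf5*, named here as the exceptions, were not). Of these, 6 were called higher and 2 lower, beside 3.22% and 3.26% of all genes tested (6.48% in either direction). The median log2 fold change of the 28 was 0.11, with 19 genes above 0 and 9 below, beside 8612 and 8698 of all genes tested. The genes called higher were the ligand *Bmp4*, the receptor *Acvr1*, the shared mediator *Smad4*, the inhibitory SMADs *Smad6* and *Smad7*, and the ubiquitin ligase *Smurf2*, and those called lower were the secreted antagonists *Fst* and *Chrd*. Counts by other tests were 7 with exactTest (6.52% of all genes tested), 9 with DESeq2 (8.72%) and 5 with limma-voom (5.29%). With limma on log2(TPM + 1) the count was 0, where 158 of all genes were called.

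*Bmp4* (chromosome 14, 46383520 to 46390669), the most abundant in TPM of the 7 BMP and GDF ligand genes listed, had 83.4, 69.4 and 79.8 CPM in control and 125.9, 106.1 and 107.7 CPM in KO libraries. All KO libraries were well above the highest control. The mean rose from 77.6 ± 7.27 to 113.2 ± 10.99 CPM (SD, n = 3 each), 1.46-fold, with a log2 fold change of 0.55 (SE 0.083, adjusted p = 0.00489 in edgeR).

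*Fst* (chromosome 13, 114452290 to 114458951) encodes follistatin, a secreted binder of activins, myostatin and some BMPs. It had 52.6, 58.8 and 56.0 CPM in control and 27.7, 37.7 and 34.5 CPM in KO libraries. All KO libraries were below the lowest control, and the mean fell from 55.8 ± 3.12 to 33.3 ± 5.10 CPM (SD, n = 3 each), a log2 fold change of -0.75 (SE 0.1003, adjusted p = 0.00182 in edgeR). The TPM of *Bmp4* over that of *Fst* was 1.70, 1.16 and 1.52 in control and 4.81, 2.73 and 4.02 in KO libraries. As both genes were called in these same libraries, in opposite directions, this ratio restates their calls and is no further evidence.

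*Chrd* (chromosome 16, 20733127 to 20742384) encodes chordin, which binds BMPs outside the cell. It had 9.01, 8.28 and 8.17 CPM in control and 5.80, 6.09 and 4.88 CPM in KO libraries, a log2 fold change of -0.60 (SE 0.137, adjusted p = 0.0173 in edgeR). The call was lost without control replicate 1 (adjusted p = 0.0735), control replicate 2 (0.0682) or KO replicate 3 (0.0791). The KO libraries were below the controls in CPM, but in TPM KO replicate 2 (4.60) was above control replicate 1 (4.52).

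*Smad7* and *Smad6* encode the inhibitory SMADs, which are themselves known feedback targets of the pathway. *Smad7* had 19.5, 20.4 and 22.0 CPM in control and 30.4, 28.3 and 26.8 CPM in KO libraries. Its groups were clearly apart, with a log2 fold change of 0.46 (SE 0.080, adjusted p = 0.00305 in edgeR). *Smad6* (chromosome 9, 63953076 to 64022059) had 11.6, 12.8 and 13.7 CPM against 18.5, 17.3 and 15.1 CPM, with a log2 fold change of 0.41 (SE 0.106, adjusted p = 0.0316 in edgeR). The lowest KO library of *Smad6* was near the highest control, and the call was lost without control replicate 1 (0.128), control replicate 2 (0.113), KO replicate 1 (0.119) or KO replicate 2 (0.113).

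The other 3 calls, which are named here after their values were seen, were small. *Smurf2*, whose product marks SMADs and receptors for degradation, had a log2 fold change of 0.25 (adjusted p = 0.00966 in edgeR; 0.0693 without control replicate 2). *Smad4* had 0.21 (adjusted p = 0.0339 in edgeR), lost without control replicate 1, control replicate 2, KO replicate 2 or KO replicate 3 (0.12 to 0.189). *Acvr1*, a type I BMP receptor, had 0.20 (adjusted p = 0.0481 in edgeR) and kept its call only when KO replicate 1 was left out (0.0274), with 0.0771 to 0.17 otherwise. In TPM the groups overlapped for *Smurf2* and *Smad4*. The receptor-regulated *Smad1* and *Smad5* had log2 fold changes of 0.077 and 0.0060 (adjusted p = 0.611 and 0.967 in edgeR), and phosphorylation of SMADs was not measured; both genes were also named after their values were seen.

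**Figure D4:**
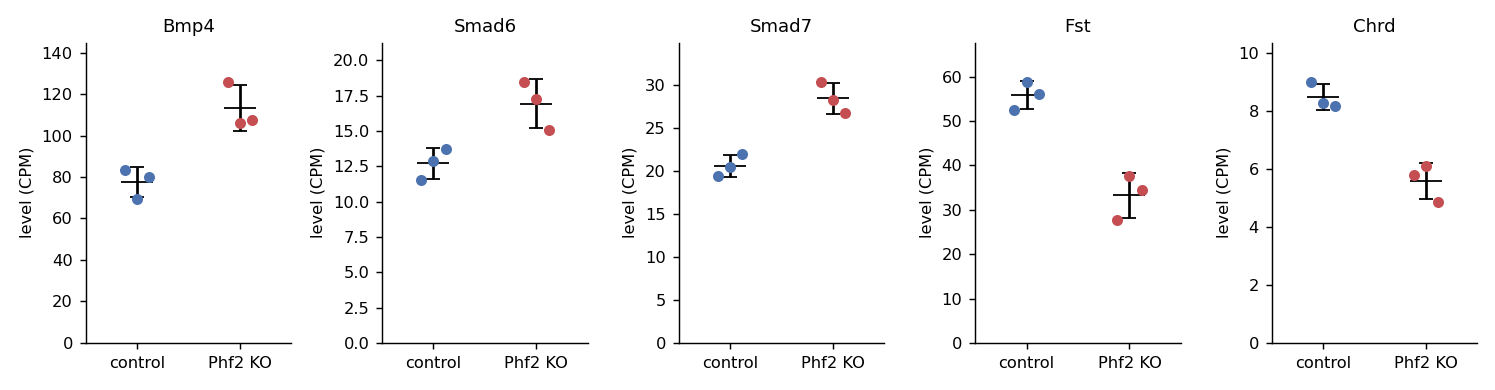
Level in CPM (linear axes from 0, a scale of its own for each gene) of the 5 BMP pathway genes with the largest log2 fold changes among those called, in 3 control and 3 *Phf2* KO libraries; points are libraries and bars the mean ± SD. *Bmp4*, *Smad6* and *Smad7* were higher and *Fst* and *Chrd* lower in CPM in every KO library than in every control library.

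Other bHLH genes, not all of them repressors, had no call by the main test. Of 21 listed genes (the Hes and Hey families and other bHLH factors), 8 were tested and 9 had no count in any library. Among the 8, only *Hes7* had a log2 fold change above 0, and the median was -0.32. By the quasi-likelihood test of edgeR 0 were past the threshold, 4 (*Hes1*, *Hes6*, *Heyl* and *Scx*) were lower at an unadjusted p under 0.05 (9.47% of all genes tested were), 0 were called by exactTest and limma-voom, and 2 (*Heyl* and *Scx*) were called lower by DESeq2, which called 4.46% of all genes tested lower. With the replicate number as a block, 3 were called lower, *Scx* (adjusted p = 0.0113 in edgeR), *Hes6* (0.0393) and *Heyl* (0.0448), beside 3.86% of all genes tested called lower in that fit (3.74% higher, 7.6% in all). The log2 fold changes of the main fit were -0.36 for *Hes1*, the Notch target that represses proneural genes, -0.17 for *Hes6*, a Hes factor known to promote myogenesis, -0.40 for *Heyl*, a Notch target, and -0.29 for *Scx*, the scleraxis gene of tendon precursors, which lies within *Bop1* on the opposite strand. These 4 genes and *Hes7* were named after their values were seen, and no group of libraries was separate for any of the 8.

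Clock genes, among which *Bhlhe40* and *Bhlhe41* are counted for their repression of CLOCK targets, gave 0 calls of 17 tested (19 listed) by the quasi-likelihood test of edgeR, exactTest, DESeq2, limma-voom and the replicate block, beside 6.48% of all genes tested by the main test. *Dbp*, an output gene of the clock, was the only one of the 17 at an unadjusted p under 0.05, where 19.4% of all genes stood (log2 fold change 0.23, unadjusted p = 0.044, adjusted p = 0.243 in edgeR). The median of the 17 was -0.037, with 8 above 0 and 9 below, and without control replicate 1 *Rora* was called lower (adjusted p = 0.043). *Dbp* and *Rora* were named after their values were seen.

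**Figure D5:**
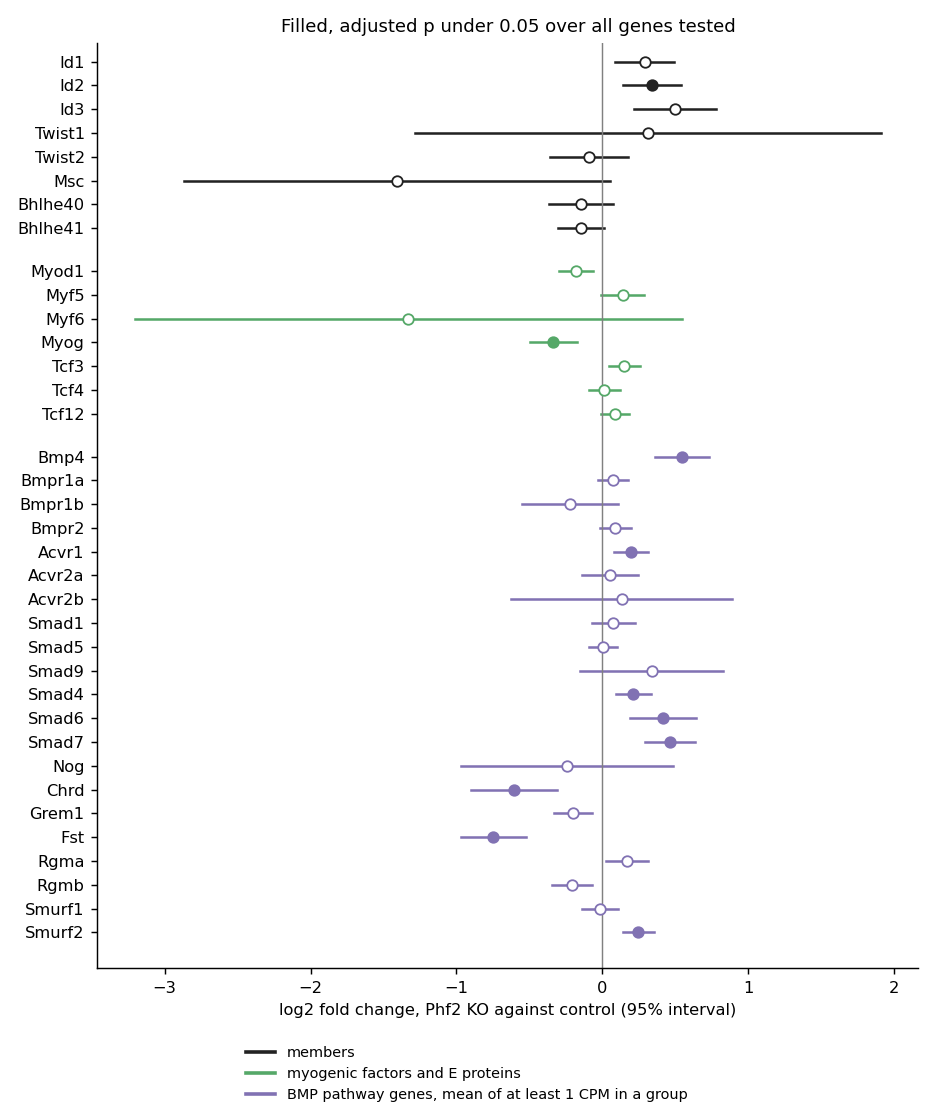
Log2 fold change of *Phf2* KO against control with its 95% interval for the 8 antagonist genes tested (black), the 7 myogenic factor and E protein genes (green) and the BMP pathway genes that reached a mean of 1 CPM in either group (purple); filled points passed the 0.05 threshold after adjustment over 17310 genes. Of the antagonist genes *Id2* is filled, and the intervals of *Id1*, *Id2* and *Id3* lie above 0 while those of *Twist1* and *Msc* are the widest of the 8.

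Markers of cell states were also read, and the lists did not all move. All 12 myotube markers were detected and all 12 had lower means in KO cells. Of all 17310 genes tested, 8698 had a negative log2 fold change. Among the 12 markers 8 were called lower, with *Myog*, already given above, as a member, beside 3.26% of all genes tested. The summed level of the 12 was 8546 to 10725 TPM in control and 6685 to 7568 TPM in KO libraries. The part of this shift in the values of the ID genes and *Myog* was not tested. The summed level of 6 markers of cycling cells was 87.8 to 94.9 TPM in control and 85.7 to 94.7 TPM in KO libraries. Of 6 osteoblast markers 2 were tested and *Ibsp* and *Dlx5* were at 0, with sums of 18.6 to 22.3 and 24.2 to 26.9 TPM; *Runx2* was called higher (log2 fold change 0.31, adjusted p = 0.00697 in edgeR), a call lost without control replicate 2 (0.0597) or KO replicate 2 (0.0511). The osteoblast sum was almost all *Runx2* (17.4 to 21.6 and 23.0 to 26.2 TPM), and *Bglap*, the osteocalcin gene and the other one tested, had a log2 fold change of -0.45 (adjusted p = 0.868 in edgeR). Of 6 adipocyte markers 2 were tested and *Plin1* and *Lep* were at 0, with sums of 27.1 to 35.2 and 43.9 to 48.8 TPM, and *Cebpa* was called higher (log2 fold change 0.65, adjusted p = 4.64e-04 in edgeR). The other one tested, *Pparg*, had -0.05 (adjusted p = 0.925 in edgeR), so that the adipocyte sum differed through *Cebpa* (23.96 to 30.4 and 40.8 to 44.9 TPM). Endothelial and blood markers summed to 2.88 to 3.45 and 2.47 to 3.30 TPM with *Hbb-bs* at 0, and neural markers to 0.196 to 0.299 and 0.189 to 0.346 TPM with *Olig2* and *Sox10* at 0. The part of these markers in the values above was not tested.

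The genes whose pattern over the 6 libraries was most like that of the leading gene of each family were found by Pearson correlation of log2 CPM among the 10922 genes whose mean was 5 CPM or more. For *Id3* these were *Fam204a* (r = 0.996), *Thbs1* (0.993), the thrombospondin 1 gene, and *Ank* (0.993), a pyrophosphate transporter, and 399 genes had an r above 0.9. For *Twist2* they were *Slc2a8* (0.991), *Aqp5* (0.988) and *Nabp1* (0.987), with 58 genes above 0.9, and for *Bhlhe40* *Hoxc13* (0.995), *Nom1* (0.993) and *Hsd17b7* (0.991), with 178. The 6 points share 2 groups and 6 library depths, and with so few points high correlations are common across the genome.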

How the data were processed

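Libraries were prepared from poly(A) RNA with a directional kit. Alignment by the authors was to mm10 (HISAT2) and counting by StringTie; versions and annotation are not given in the sources used here. The deposited matrix holds estimated counts per gene, not scaled by library size: in genes with 1 transcript and at least 500 counts, a count stood for a median of 74.98 to 74.99 covered bases, so counts are not reads and depth is overstated. Per-library tables hold TPM, deposited by the authors as a length-scaled signal over reference genes and assembled loci together (rows of reference genes were used), FPKM deposited beside it, and mean coverage per base, which the authors deposited and which served only for the count unit and as an alternative scale.

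After filterByExpr (minimum count 10) and TMM scaling, genes were tested by the quasi-likelihood test (robust) of edgeR 4.0.16 in R 4.3.3, 3 control against 3 *Phf2* KO libraries, with Benjamini-Hochberg adjustment over 17310 genes and a threshold of 0.05. The common biological coefficient of variation was 0.135. Past it were 1122 genes, 557 higher and 565 lower. The study's own test was exactTest of edgeR. The alternatives were exactTest, DESeq2 1.42.0, limma-voom (limma 3.58.1), other scalings and filters, counts divided by 4, limma on log2(TPM + 1) and log2(TPM + 0.1), the replicate block, a threshold of 0.01 and each library left out. DESeq2 gave no adjusted p for *Twist1*, *Msc* and *Myf6*, nor for 2 of the BMP pathway genes and 2 of the other bHLH genes tested. These were counted as not called. Single genes were also compared with a two-sided exact permutation test. Figures were drawn with Python 3.11.15, and coordinates are those of GENCODE M21 (GRCm38).

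The genes and lists were chosen with earlier results of these data known. Named were the 9 genes, *Phf2*, all myogenic factor and E protein genes, up to 5 called genes of each other list by size of change, overlapping genes and the 3 genes most like each leading gene, and other names were chosen after their values were seen. Libraries sharing a replicate number deviated together from their group means, with correlations of 0.235, 0.258 and 0.168 across 10923 genes. Different numbers gave at most -0.00193. Because deviations were taken from the group means, positive values for the same number push the others negative, so this contrast cannot establish pairs. No source describes a pairing, the main fit had no replicate term, and the block was an alternative.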

Additional observations from a re-analysis of the deposited data

How the results depend on the processing

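Precision is limited by 3 wells per group from single pools, and for *Twist1* and *Msc* by few counts. Of 414 values of single genes over 21 genes, 360 kept their direction and side of the threshold, 37 were no longer past it, 9 came past it and 8 turned: *Twist1* to -0.1087 and -0.0362 (without control replicate 2, KO replicate 1; range with a library left out -0.1087 to 1.146), *Twist2* to 0.01435 (without control replicate 3; range -0.1682 to 0.01435), and *Tcf4* to -0.42 and -0.43 (log2(TPM + 1), log2(TPM + 0.1)) and to -0.01971, -0.0039 and -0.0056 (without control replicate 1, control replicate 2, KO replicate 3; range -0.01971 to 0.06482). The 360 include the DESeq2 values of *Twist1*, *Msc* and *Myf6*, which had no adjusted p and were counted by direction alone. The 414 include the threshold of 0.01, which is the main fit again and cannot turn a direction. *Id1*, *Id2* and *Id3* were higher in KO cells in every fit run.

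The count of genes past the threshold, 1122, was 158 and 178 with the TPM fits, 472 at an adjusted p under 0.01, and 468 to 1039 with a library left out (468 without control replicate 2, 577 without KO replicate 2, 613 without KO replicate 3). For the 9 antagonist genes the count of 1 was 2 with exactTest and with DESeq2 (*Id2* and *Id3*), 0 with both TPM fits and at 0.01, and 0 to 1 with a library left out. The myogenic factor and E protein count of 1 was 2 with DESeq2, with the filter of at least 1 CPM in 3 libraries and with counts divided by 4, 0 with both TPM fits and at 0.01, and 0 to 1 with a library left out. The BMP count of 8 was 5 with limma-voom, 0 and 1 with the TPM fits, 4 at 0.01, and 3 to 8 with a library left out (4 without control replicate 1, 3 without control replicate 2, 5 without KO replicate 2 or 3). The other bHLH genes went from 0 to 2 with DESeq2. With a library left out they went to 0 to 2 (*Heyl* without control replicate 3, *Hes1* and *Scx* without KO replicate 2), and the clock genes to 0 to 1. With the replicate block, 1316 genes, 1 antagonist gene (*Id2*) and 1 gene of the myogenic factors and E proteins were called. So were 9 BMP genes (with *Grem1* added), and the other bHLH genes went from 0 to 3. No other count by list moved by over 1.5 times. The mean ratio of *Id3* to *Id1*, 4.31 in TPM, was 3.68 in coverage. The cause of these shifts was not tested, and leaving out a library also lowers the number of wells.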
